A study of Homo sapiens with 18 samples.

Results

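The genes described are 10 enzymes and partners of DNA methylation and of Polycomb repressive complex 2 (PRC2): DNMT1, UHRF1, HELLS, DNMT3A, DNMT3B, TET1, TET2, EZH2, EED and SUZ12. They were chosen by name, as the rows whose Ensembl identifier maps to these symbols, and all 10 were found among the 18670 genes of the count table. RNA was sequenced from U937 and THP-1, established human monocytic lines that the labels call acute myeloid leukemia. S100A9, a calcium-binding protein of myeloid cells, was knocked down in U937 cells with a lentiviral short hairpin (shS100A9) and set against an empty vector. In THP-1 cells it was overexpressed from a lentivirus and set against an empty vector in the same line. Both kinds of THP-1 cells were also kept for 36 hours with Adavivint at 1 µM, a small molecule also called lorecivivint and developed as a blocker of the Wnt pathway. This gave 6 groups of 3 libraries: U937 shS100A9, U937 empty vector, THP-1 overexpression with Adavivint, THP-1 empty vector with Adavivint, THP-1 overexpression and THP-1 empty vector. Every group carried a lentivirus and had passed puromycin selection, started 48 hours after transduction at 2 µg/mL. No vehicle is named for the cells without Adavivint, and these are called untreated below. The labels do not name the hairpin sequence, the promoter of the overexpression vector or the number of clones, and they do not say that replicates were separate cultures. The p-values therefore measure the spread between these libraries, which may be technical.

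In mammalian cells DNMT1 copies cytosine methylation onto the new strand behind the replication fork. UHRF1 brings it to hemimethylated sites, and the remodeller HELLS, with its partner CDCA7, opens nucleosomes for it. DNMT3A and DNMT3B place methyl groups on unmethylated DNA, and the TET enzymes oxidize methylcytosine, the first step of its removal. PRC2 methylates histone H3 at lysine 27: EZH2 or its paralog EZH1 is the catalytic subunit, EED binds the finished mark and SUZ12 holds the complex together. DNMT3A, TET2 and EZH2 are among the genes known to be mutated in myeloid leukemias.

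Promoter stretches of 7 members are printed here because the members differ in the letters near their start sites. Any link between these letters and the drug effects was not tested. The sequences are RefSeq's on GRCh38.p14, each 120 bases on the strand of the gene. In windows from 250 bases before to 50 after a start, all 10 members had an entry. E2F sites were searched as the 4 forms TTTCCCGC, TTTCGCGC, TTTGCCGC and TTTGGCGC on both strands, and the E-box as CACGTG, which reads the same on both strands. DNMT1, UHRF1, HELLS, EZH2 and SUZ12 had at least 1 E2F form, 5 of 10 members, whereas 3.99% of all genes with a window did. DNMT3A and TET2 had the E-box, which 8.77% of all genes with a window had. A gene with more windows has more places to match. By window, E2F forms were in 6 of 21 member windows and 3.31% of all windows, and the E-box in 3 of 21 and 7.26%. No member had both, and a match is only a match of letters. Capitals mark the matched letters, and DNMT3B, which had neither in its 1 window, is in lower case throughout. That window lies around a start inside the annotated gene, which begins at 32762385 on chromosome 20. The beginning of the annotated DNMT3B gene was therefore not searched, and whether it holds either match was not tested. The stretches printed for DNMT1, UHRF1 and HELLS also lie inside their annotated genes. The stretches lie at chr19:10194934-10195053 (minus strand) for DNMT1, chr19:4909401-4909520 (plus) for UHRF1, chr10:94545688-94545807 (plus) for HELLS, chr7:148884272-148884391 (minus) for EZH2, chr17:31936787-31936906 (plus) for SUZ12, chr20:32779752-32779871 (plus) for DNMT3B and chr4:105145775-105145894 (plus) for TET2. They run from 100 bases before to 20 after the start, except SUZ12, whose stretch begins 220 bases before it.
DNMT1: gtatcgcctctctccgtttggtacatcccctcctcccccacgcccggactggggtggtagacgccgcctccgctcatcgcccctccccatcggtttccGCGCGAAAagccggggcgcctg
UHRF1: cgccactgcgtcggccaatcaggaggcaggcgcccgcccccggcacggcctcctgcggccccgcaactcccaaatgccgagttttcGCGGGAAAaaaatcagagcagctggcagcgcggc
HELLS: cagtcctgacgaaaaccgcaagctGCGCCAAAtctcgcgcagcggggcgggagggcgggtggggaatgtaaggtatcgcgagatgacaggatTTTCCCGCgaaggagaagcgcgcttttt
EZH2: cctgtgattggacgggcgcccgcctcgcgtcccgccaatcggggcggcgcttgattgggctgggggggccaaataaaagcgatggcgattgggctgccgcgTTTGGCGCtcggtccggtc
SUZ12: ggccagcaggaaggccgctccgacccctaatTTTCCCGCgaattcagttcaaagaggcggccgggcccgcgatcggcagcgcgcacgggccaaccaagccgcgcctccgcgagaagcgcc
DNMT3B: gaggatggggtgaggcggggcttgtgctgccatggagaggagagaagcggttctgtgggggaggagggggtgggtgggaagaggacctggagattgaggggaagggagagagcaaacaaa
TET2: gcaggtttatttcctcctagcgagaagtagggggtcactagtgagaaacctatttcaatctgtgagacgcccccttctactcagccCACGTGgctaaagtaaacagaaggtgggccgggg

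The libraries held 38433169 to 84409062 counts, so even TET1, the least abundant member, had at least 50 counts in every library and HELLS at least 497. Levels are given as CPM, a gene's counts relative to the library size, on 1 scale over all 18 libraries, with folds from edgeR, and a gene is said to have changed when its adjusted p was below 0.05 over all genes tested. S100A9 followed the labels: 0.225 ± 0.170 CPM in U937 shS100A9 and 6.13 ± 1.38 CPM in U937 empty vector, and 27.9 ± 1.70 CPM in THP-1 overexpression and 6.37 ± 2.71 CPM in THP-1 empty vector (SD, n = 3 each). With Adavivint it had 107 ± 5.09 CPM in overexpression and 14.0 ± 1.10 CPM in empty vector cells (SD, n = 3 each). S100A9 itself thus rose under the drug, 3.80-fold with overexpression (adjusted p = 2.48e-07) and 2.16-fold with the empty vector (0.000174). The overexpressing cells exceeded the empty vector cells 7.67-fold with drug and 4.36-fold without (interaction 0.81 on the log2 scale, adjusted p = 0.0548). Of 16 myeloid markers, 14 to 16 were above 1 CPM in each group, while summed markers of lymphoid cells stayed at or below 15.0 CPM and those of erythroid, epithelial and stromal cells at or below 4.98 CPM. Of the replicates, 2 U937 libraries stood apart from their groups, shS100A9 3 and empty vector 2: their chi-square per degree of freedom against the others was 167 to 225 and 135 to 142, against 13.1 and 8.05 within the rest of each group. U937 results are therefore also given without both.

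**Figure D1:**
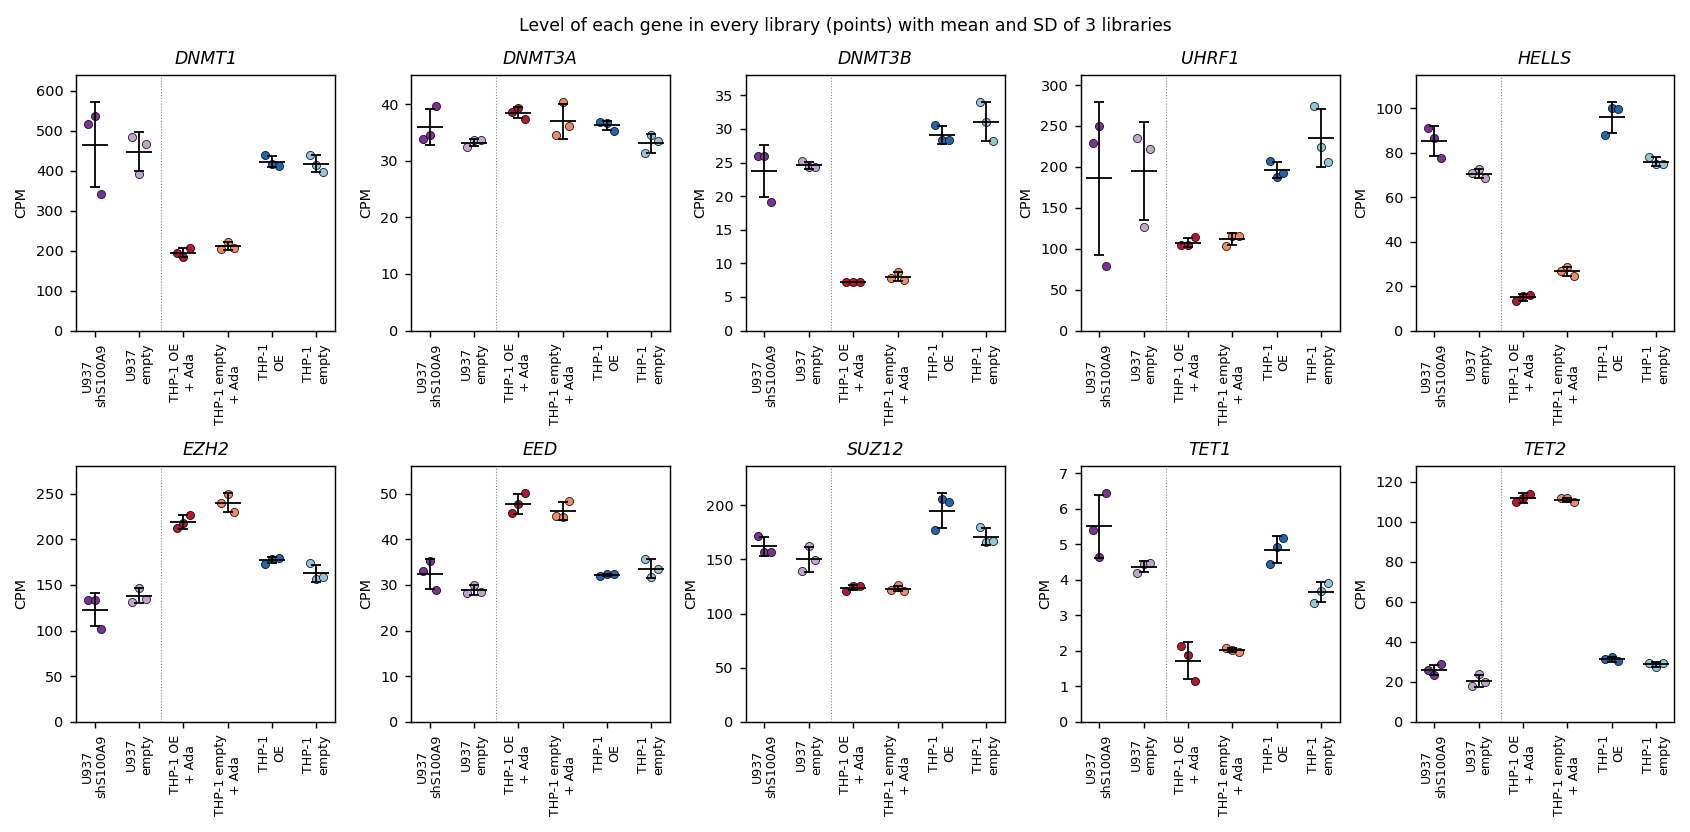
Level of each member in CPM (vertical axis, linear, from 0) in every library, with the groups along the horizontal axis (OE, S100A9 overexpression; Ada, Adavivint; empty, empty vector). Points are libraries, bars the mean and SD of 3. HELLS reached 13.2 to 28.6 CPM in the 6 libraries with drug and 74.8 to 100 CPM in the 6 untreated THP-1 libraries, while TET2 reached 110 to 114 CPM with drug and 27.3 to 32.5 CPM without.

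The first question was how Adavivint affected these genes in THP-1 cells of either vector. The transcripts of maintenance methylation fell with both vectors, DNMT3B and TET1 fell, TET2 rose, and the 3 core PRC2 subunits split, with EZH2 and EED higher and SUZ12 lower. In overexpressing cells 9 of 10 members changed, 3 higher and 6 lower, where 84.7% of all 15403 genes tested changed (43.4% higher, 41.3% lower). In empty vector cells all 10 changed, 4 higher and 6 lower, where 85.3% of all genes did (44.2% higher, 41.1% lower). The counts are thus close to the background. The libraries of all 10 members did not overlap in either comparison, as for 87.5% of all genes with overexpression and 85.1% with the empty vector. By size, the median absolute change of all genes was 0.98 on the log2 scale in overexpressing cells and 0.96 in empty vector cells. HELLS, DNMT3B, TET2 and DNMT1 moved by more than that with both vectors, and DNMT3A, EED, EZH2 and SUZ12 by less. The 2 drug comparisons use different libraries. In bulk RNA, fewer cells of a type and less RNA per cell cannot be told apart.

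HELLS, the chromatin remodeller (ENSG00000119969, on GRCh38 in GENCODE 29 at chromosome 10, 94501434 to 94613905, plus strand, 26 exon blocks), had the largest fall of the members in overexpressing cells. Its levels were 13.2, 15.4 and 16.1 CPM in overexpression with Adavivint, against 87.9, 100 and 99.5 CPM in untreated overexpression. They were 26.7, 28.6 and 24.7 CPM in empty vector with Adavivint, against 78.1, 74.8 and 75.0 CPM in untreated empty vector. The 3 libraries with both drug and overexpression were the lowest of all 18, and no drug library reached an untreated one. The fall was 6.48-fold with overexpression (log2 fold change -2.70, SE 0.09, adjusted p = 1.63e-12) and 2.85-fold with the empty vector (-1.51, SE 0.08, adjusted p = 3.35e-10). HELLS overlaps TBC1D12 on the same strand, and reads of the overlap could be shared. TBC1D12 rose with the drug, at 9.04 ± 0.968 against 6.76 ± 0.0904 CPM with overexpression and 10.2 ± 0.644 against 8.49 ± 1.03 CPM with the empty vector (SD, n = 3 each).

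DNMT1, the maintenance methyltransferase (ENSG00000130816, chromosome 19, 10133345 to 10231286, minus strand), was the most abundant of the 3 DNA methyltransferases per kb of exon in every group. It had 194, 184 and 207 CPM in overexpression with Adavivint, against 440, 418 and 412 CPM in untreated overexpression. With the empty vector it had 205, 222 and 207 CPM with Adavivint, against 440, 415 and 397 CPM untreated. Each treated library lay below every untreated one, and the fall was 2.19-fold with overexpression (log2 fold change -1.13, SE 0.06, adjusted p = 1.95e-10) and 1.98-fold with the empty vector (-0.99, SE 0.06, adjusted p = 8.56e-10). S1PR2, which overlaps DNMT1 on the same strand, rose, and had 6.86 ± 0.482 CPM in treated and 5.06 ± 0.542 CPM in untreated overexpression and 7.29 ± 0.909 and 5.78 ± 0.725 CPM in treated and untreated empty vector cells (SD, n = 3 each).

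UHRF1, the reader of hemimethylated DNA (ENSG00000276043, chromosome 19, 4903080 to 4962154, plus strand), had 104, 104 and 114 CPM in overexpression with Adavivint, against 207, 188 and 193 CPM untreated. In empty vector cells it had 103, 115 and 116 CPM with Adavivint, against 274, 224 and 206 CPM untreated. The treated libraries of both vectors covered nearly the same range, and untreated empty vector 1 was the highest of the THP-1 libraries. The fall was 1.84-fold with overexpression (log2 fold change -0.88, SE 0.09, adjusted p = 5.16e-07) and 2.11-fold with the empty vector (-1.08, SE 0.09, adjusted p = 5.87e-08). Its paralog UHRF2 rose, 1.49-fold to 249 ± 11.2 CPM with overexpression (166 ± 8.99 CPM untreated) and 2.01-fold to 269 ± 5.14 CPM with the empty vector (134 ± 11.7 CPM untreated; SD, n = 3 each).

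The de novo methyltransferases moved apart. DNMT3B (ENSG00000088305, chromosome 20, 32762385 to 32809356, plus strand) had 7.25, 7.20 and 7.26 CPM in overexpression with Adavivint, against 30.6, 28.3 and 28.4 CPM untreated. The empty vector cells had 7.86, 8.77 and 7.50 CPM with Adavivint, against 34.0, 31.1 and 28.2 CPM untreated. The treated libraries were far below all untreated ones: the fall was 4.05-fold with overexpression (log2 fold change -2.02, SE 0.09, adjusted p = 3.38e-11) and 3.88-fold with the empty vector (-1.96, SE 0.09, adjusted p = 4.41e-11). DNMT3A (ENSG00000119772, chromosome 2, 25227855 to 25342590, minus strand) had 38.6, 39.4 and 37.4 CPM in overexpression with Adavivint, against 36.8, 36.6 and 35.3 CPM untreated. With the empty vector it had 34.5, 40.4 and 36.1 CPM with Adavivint, against 31.3, 34.5 and 33.5 CPM untreated. These ranges all but touched: the difference passed with the empty vector (log2 fold change 0.16, SE 0.06, adjusted p = 0.0287) and did not with overexpression (0.07, SE 0.06, adjusted p = 0.281). The empty vector call was lost without treated empty vector 2 (0.08, adjusted p = 0.231), untreated empty vector 1 (0.0872) or untreated empty vector 3 (0.0532), and in a fit of the 2 groups alone (0.0678). Per kb of exon, DNMT3A stood at 1.98 to 2.11 of DNMT3B in treated and 0.464 to 0.498 in untreated overexpression, and at 1.69 to 1.85 in treated and 0.354 to 0.457 in untreated empty vector cells. Per kb, DNMT3A was thus above DNMT3B in every drug library and below it in every untreated one. The untreated order rests on the annotated exon lengths, 12020 bases for DNMT3A and 4630 for DNMT3B. In CPM the untreated means of DNMT3A and DNMT3B were 36.3 and 29.1 with overexpression and 33.1 and 31.1 with the empty vector. DNMT3L, a catalytically inactive cofactor of both, fell (adjusted p = 0.00355 with overexpression and 0.00185 with the empty vector) but was scarce, with 5 and 36 counts in treated and untreated overexpression and 7 and 37 in treated and untreated empty vector cells.

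TET2, a dioxygenase (ENSG00000168769, chromosome 4, 105145875 to 105279816, plus strand), had the largest rise of the members. It had 110, 112 and 114 CPM in overexpression with Adavivint, against 31.2, 32.5 and 30.2 CPM untreated. In empty vector cells it had 112, 112 and 110 CPM with Adavivint, against 29.4, 27.3 and 29.6 CPM untreated. The 6 treated libraries lay close together and far above the rest: the rise was 3.55-fold with overexpression (log2 fold change 1.83, SE 0.05, adjusted p = 3.99e-13) and 3.86-fold with the empty vector (1.95, SE 0.05, adjusted p = 2.59e-13). TET2-AS1 lies antisense in the gene and was not used here. The strand setting of the counting is not given, so its reads cannot be told from those of TET2. TET3, the third enzyme of the family, also rose, 2.46-fold to 254 ± 10.6 CPM with overexpression (102 ± 1.21 CPM untreated) and 2.47-fold to 244 ± 11.9 CPM with the empty vector (98.5 ± 3.37 CPM untreated; SD, n = 3 each).

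TET1 (ENSG00000138336, chromosome 10, 68560656 to 68694482, plus strand) was scarce and fell. It had 2.13, 1.89 and 1.14 CPM in overexpression with Adavivint, against 4.44, 4.91 and 5.18 CPM untreated. The empty vector cells had 2.09, 2.01 and 1.96 CPM with Adavivint, against 3.35, 3.69 and 3.90 CPM untreated. The groups did not overlap: the fall was 2.85-fold with overexpression (log2 fold change -1.51, SE 0.19, adjusted p = 3.97e-06) and 1.80-fold with the empty vector (-0.85, SE 0.19, adjusted p = 0.000758). Per kb, TET2 stood at 29.0 to 56.4 times TET1 in treated and 3.28 to 3.97 times in untreated overexpression, and at 30.2 to 31.6 times in treated and 4.18 to 4.94 times in untreated empty vector cells.

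**Figure D2:**
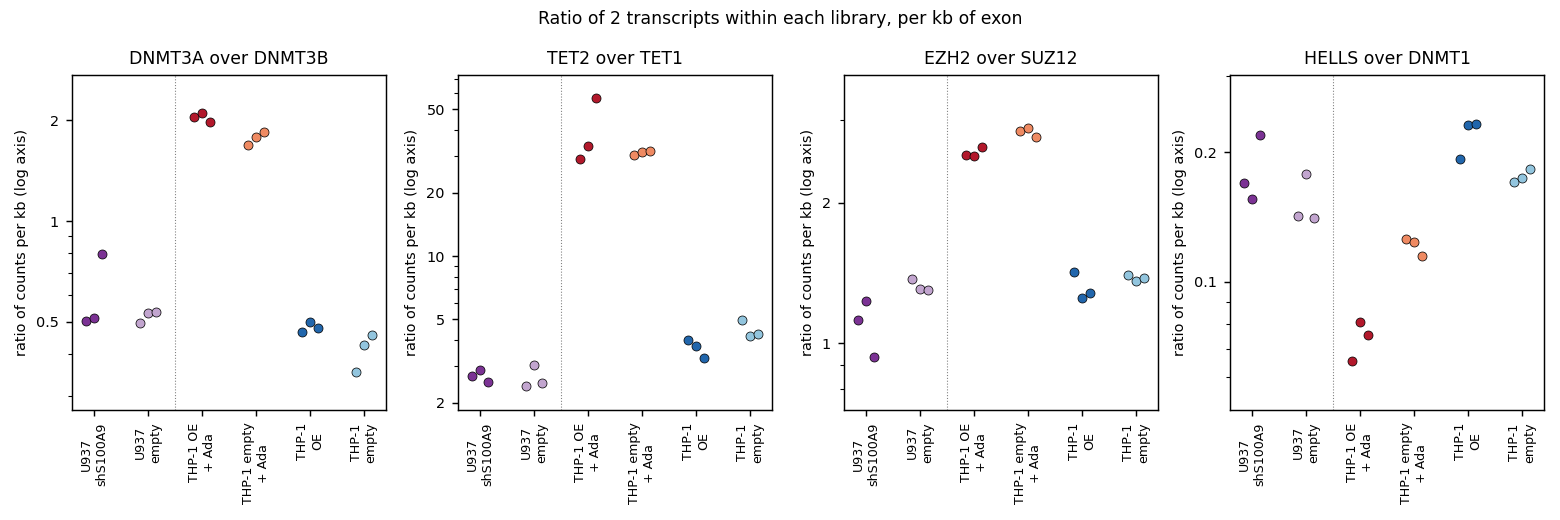
Ratios of 2 transcripts within each library, from counts per kb of exon (vertical axis, logarithmic), with the groups along the horizontal axis and 1 point per library. In THP-1 the treated and untreated libraries are apart in all 4 panels: DNMT3A over DNMT3B was 1.69 to 2.11 with drug and 0.354 to 0.498 without.

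Among the PRC2 core subunits EZH2, the catalytic one (ENSG00000106462, chromosome 7, 148807383 to 148884321, minus strand), was higher with the drug. It had 212, 218 and 227 CPM in overexpression with Adavivint, against 173, 178 and 180 CPM untreated. With the empty vector it had 240, 250 and 230 CPM with Adavivint, against 174, 157 and 159 CPM untreated. The treated empty vector libraries were the highest of the 18, and the rise was 1.23-fold with overexpression (log2 fold change 0.29, SE 0.05, adjusted p = 0.00018) and 1.47-fold with the empty vector (0.55, SE 0.05, adjusted p = 3.17e-07). EZH1, its paralog, fell, 1.53-fold to 29.6 ± 1.16 CPM with overexpression (44.9 ± 1.03 CPM untreated) and 1.17-fold to 32.4 ± 1.34 CPM with the empty vector (37.7 ± 4.62 CPM untreated; SD, n = 3 each). Per kb, EZH2 stood at 10.7 to 11.9 times EZH1 in treated and 5.81 to 6.27 times in untreated overexpression, and at 10.9 to 12.2 times in treated and 5.71 to 7.71 times in untreated empty vector cells.

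EED, the reader of the finished mark (ENSG00000074266, chromosome 11, 86244544 to 86278813, plus strand), had 45.8, 47.7 and 50.1 CPM in overexpression with Adavivint, against 31.9, 32.3 and 32.5 CPM untreated. In empty vector cells it had 45.2, 44.9 and 48.5 CPM with Adavivint, against 35.7, 31.7 and 33.5 CPM untreated. The treated libraries lay together above all untreated ones, with a rise of 1.47-fold with overexpression (log2 fold change 0.56, SE 0.06, adjusted p = 9.47e-07) and 1.37-fold with the empty vector (0.45, SE 0.06, adjusted p = 8.78e-06). SUZ12, the scaffold (ENSG00000178691, chromosome 17, 31937018 to 32001045, plus strand), had 121, 125 and 125 CPM in overexpression with Adavivint, against 177, 206 and 203 CPM untreated. The empty vector cells had 122, 126 and 121 CPM with Adavivint, against 180, 166 and 167 CPM untreated. The treated libraries of both vectors shared 1 narrow range below the rest, a fall of 1.59-fold with overexpression (log2 fold change -0.67, SE 0.06, adjusted p = 1.66e-07) and 1.40-fold with the empty vector (-0.48, SE 0.06, adjusted p = 5.52e-06). Per kb, EZH2 stood at 2.52 to 2.63 times SUZ12 in treated and 1.25 to 1.42 times in untreated overexpression, and at 2.76 to 2.89 times in treated and 1.36 to 1.40 times in untreated empty vector cells. EED stood at 0.353 to 0.373 of SUZ12 in treated and 0.146 to 0.168 in untreated overexpression, and at 0.334 to 0.375 in treated and 0.178 to 0.187 in untreated empty vector cells. The level of both partners relative to the scaffold was thus higher in each treated THP-1 library than in any untreated one.

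**Figure D3:**
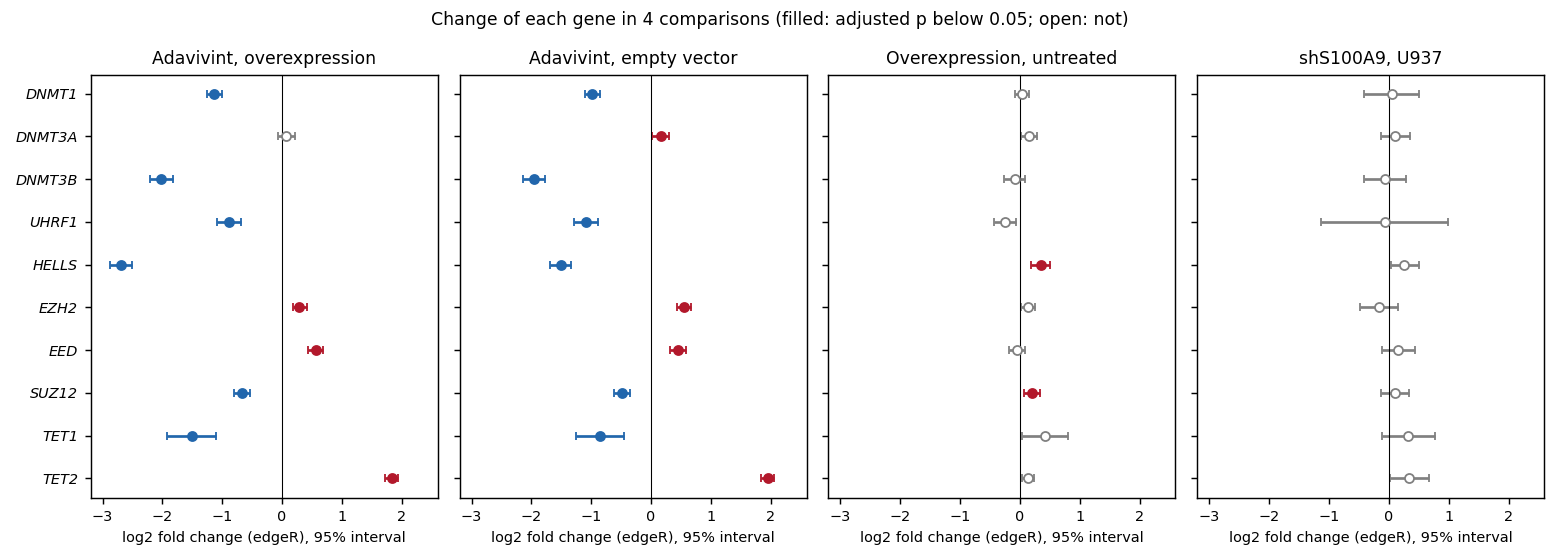
Log2 fold change of each member (horizontal axis, edgeR) with its 95% interval in 4 comparisons, from left to right Adavivint in overexpressing cells, Adavivint in empty vector cells, overexpression in untreated THP-1 and shS100A9 in U937. Filled points passed an adjusted p of 0.05, red higher and blue lower, and open points did not. The point estimates span -2.70 to 1.95 in the drug panels and stay between -0.25 and 0.42 in the 2 others.

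Genes of replication and division moved beside the members. Of 32 S phase replication genes, 2 were higher and 26 lower with the drug in overexpressing cells (median log2 fold change -1.46), and 4 higher and 27 lower in empty vector cells (median -1.37). The median of all genes was 0.04 and 0.06 in these comparisons, with 43.4% and 44.2% higher and 41.3% and 41.1% lower in the same order. The summed level of the 32 replication genes was 2020 to 2170 CPM in treated and 5160 to 5320 CPM in untreated overexpression, and 2360 to 2470 CPM in treated and 5270 to 6100 CPM in untreated empty vector cells. The helicase subunit MCM4 fell 6.61-fold with overexpression and 5.66-fold with the empty vector, MCM3 5.29-fold and 4.91-fold in the same order, the helicase activator CDC45 9.75-fold and 7.39-fold, and the chromatin assembly subunit CHAF1B 7.21-fold and 4.75-fold. All 32 genes stayed above 1 CPM in every group.

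Mitosis genes did not follow them as a list. Of 20, 11 were higher and 7 lower in overexpressing cells (median log2 fold change 0.25), and 9 were higher and 9 lower in empty vector cells (median -0.00). The summed level was 7030 to 7240 CPM in treated and 4560 to 4670 CPM in untreated overexpression, and 5560 to 5600 CPM in treated and 4690 to 5000 CPM in untreated empty vector cells. The proliferation marker MKI67 rose 2.88-fold with overexpression and 2.16-fold with the empty vector, the kinetochore genes CENPF 2.50-fold and 1.84-fold and CENPE 2.27-fold and 2.56-fold, while the cyclin CCNA2 fell 2.86-fold and 3.45-fold. The part of cell cycle composition in the changes of DNMT1, UHRF1, HELLS, EZH2 and the other members was not tested.

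Other genes of the same pathways were read as lists chosen by function. Over all genes tested, the drug gave 43.4% higher and 41.3% lower with overexpression and 44.2% higher and 41.1% lower with the empty vector. Of 13 other genes of DNA methylation and demethylation tested, 4 were higher and 9 lower with the drug with each vector (median log2 fold change -1.14 with overexpression and -0.71 with the empty vector). IDH2, a mitochondrial isocitrate dehydrogenase whose product is the cosubstrate of TET enzymes, fell 15.5-fold to 19.1 ± 0.722 CPM with overexpression (295 ± 18.7 CPM untreated) and 11.0-fold to 27.9 ± 2.08 CPM with the empty vector (307 ± 8.83 CPM untreated; SD, n = 3 each). CDCA7L, a relative of the HELLS partner CDCA7, fell 10.5-fold to 68.3 CPM (715 CPM untreated) with overexpression and 6.23-fold to 99.9 CPM (622 CPM untreated) with the empty vector. CDCA7 itself, named after its values were seen, fell 3.75-fold with overexpression (adjusted p = 4.29e-11) and 2.51-fold with the empty vector (1.84e-09). GADD45B, a stress-induced gene linked to demethylation, rose 3.78-fold and 3.37-fold in the same order. TRDMT1, once called DNMT2 and now known as a transfer RNA methyltransferase, fell 2.21-fold and 1.55-fold. DPPA3, a UHRF1 inhibitor of the germline, had at most 2 counts in any group and was not tested.

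Of 10 genes that supply or recycle S-adenosylmethionine, the methyl donor, 4 were higher and 6 lower with each vector (median log2 fold change -0.95 with overexpression and -0.97 with the empty vector). Among all genes tested, 84.7% changed with overexpression and 85.3% with the empty vector. The salvage enzyme MTAP fell 8.97-fold to 9.51 CPM (84.6 CPM untreated) with overexpression and 5.33-fold to 15.5 CPM (82.4 CPM untreated) with the empty vector. ADK, adenosine kinase, fell 4.19-fold and 3.25-fold in the same order, AHCY, which clears S-adenosylhomocysteine, 2.69-fold and 2.53-fold, and its relative AHCYL1 4.31-fold and 2.94-fold. Of 8 genes of the methyl-CpG-binding families, 4 were higher and 3 lower with each vector. The zinc finger reader ZBTB38 rose 2.82-fold with overexpression and 3.52-fold with the empty vector, whereas MBD3 fell 1.52-fold and 1.84-fold and the glycosylase MBD4 1.76-fold and 1.52-fold.

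Other PRC2 subunits and cofactors split evenly, with 5 of 10 higher and 5 lower with each vector (median log2 fold change 0.02 with overexpression and 0.03 with the empty vector). All genes tested split nearly so, 43.4% higher and 41.3% lower with overexpression and 44.2% higher and 41.1% lower with the empty vector. The histone-binding subunits RBBP7 and RBBP4 fell, RBBP7 2.54-fold with both vectors and RBBP4 2.26-fold with overexpression and 1.87-fold with the empty vector. EPOP, a subunit that limits PRC2 binding, fell 4.17-fold and 5.28-fold in the same order, and LCOR, the locus of another accessory subunit, rose 2.86-fold and 3.12-fold. Of 23 genes of PRC1, the complex that ubiquitinates histone H2A, 13 were higher and 9 lower with overexpression and 13 higher and 8 lower with the empty vector. PHC3 rose 2.28-fold and 2.86-fold, YAF2 2.79-fold and 2.63-fold and the ligase RING1 1.91-fold and 1.87-fold, while SCMH1 fell 1.86-fold and 1.55-fold. Of 5 H3K27 demethylase and H2A deubiquitinase genes tested, 2 were higher and 1 lower with overexpression and 3 higher and 1 lower with the empty vector. The demethylase KDM6A rose 2.11-fold and 2.41-fold and the deubiquitinase cofactor ASXL2 2.23-fold and 2.08-fold, while the deubiquitinase BAP1 fell 1.16-fold and 1.20-fold. The demethylase KDM6B was at -0.05 on the log2 scale with overexpression (adjusted p = 0.548) and rose with the empty vector (0.25, adjusted p = 0.00507), and the difference between these effects did not pass.

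**Figure D4:**
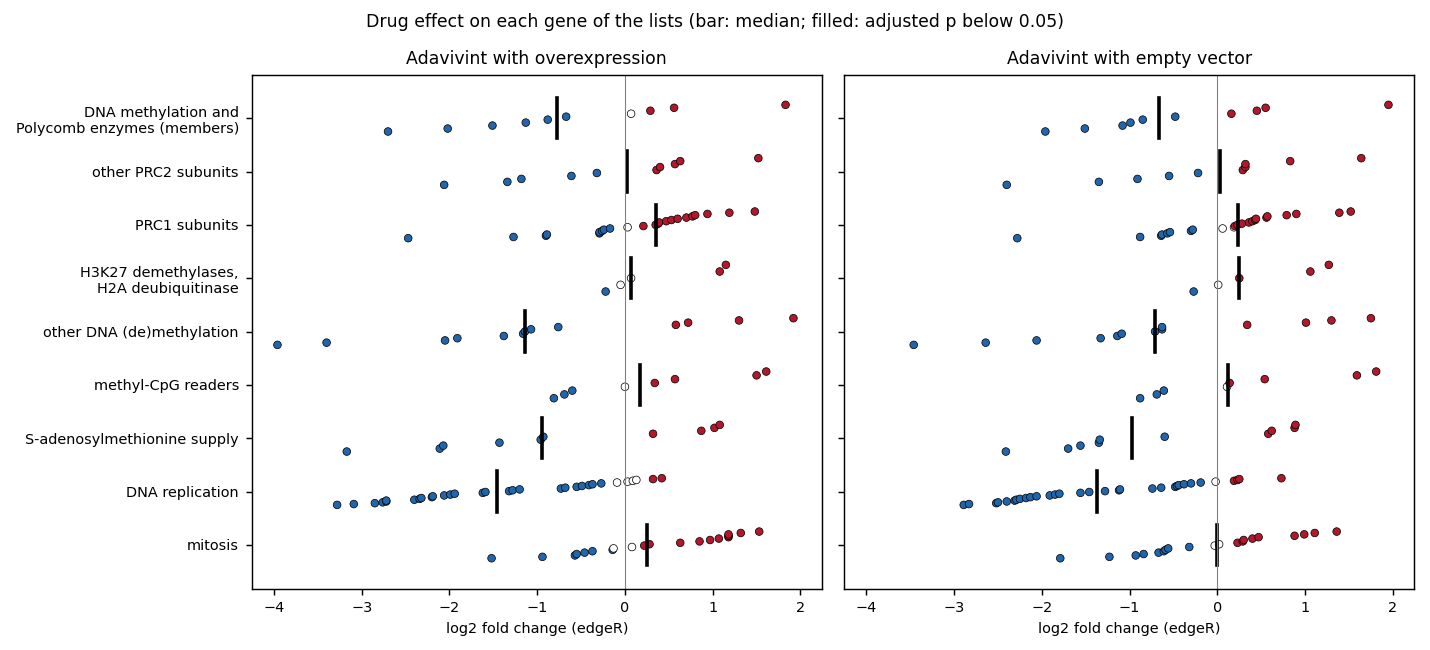
Log2 fold change under Adavivint (horizontal axis, edgeR) of every tested gene of the members and of 8 lists, in overexpressing cells (left) and empty vector cells (right). Points are genes, red higher, blue lower and white not passed, and the vertical bar is the median. The DNA replication list has medians of -1.46 and -1.37, and the PRC2 list medians of 0.02 and 0.03.

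The next question was whether the drug effect differed between the vectors. The difference was tested as an interaction, and 2 of 10 members passed, both lower, where 19.3% of all genes passed (8.04% higher, 11.2% lower). For HELLS the drug effect was -2.70 with overexpression and -1.51 with the empty vector, a difference of -1.18 on the log2 scale (95% interval -1.43 to -0.94, adjusted p = 8.37e-05). It passed in all 12 fits that left out 1 library and in the other alternatives run. For EZH2 the difference was -0.26 (95% interval -0.43 to -0.09, adjusted p = 0.0331): the rise with overexpression was the smaller one. Leaving out 1 library ended that call in 8 of 12 cases (adjusted p = 0.0516 to 0.0903), those without untreated empty vector 2 or 3, untreated overexpression 2 or 3, treated empty vector 1 or 2, or treated overexpression 1 or 2. The difference in S100A9 level between the vectors was 7.67-fold with drug and 4.36-fold untreated, and its part in the HELLS and EZH2 differences was not tested. The interval of the difference was -1.23 to -0.09 for TET1 (adjusted p = 0.100). For SUZ12, DNMT1, DNMT3A, DNMT3B, UHRF1, EED and TET2 it included 0 and stayed between -0.38 and 0.47.

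Under the drug, overexpressing and empty vector cells were also compared directly. HELLS was the 1 member that changed, where 8.50% of all genes did (3.69% higher, 4.80% lower). It was 1.78-fold lower in overexpression with Adavivint, and its libraries did not overlap, as for 32.6% of all genes (log2 fold change -0.83, SE 0.08, adjusted p = 0.000218). The other members differed by -0.24 to 0.06 on the log2 scale. Mitosis genes were higher in 14 of 20 cases and lower in none in this comparison, and replication genes lower in 15 of 32 and higher in none, and their part in the HELLS difference was not tested. This comparison shares its libraries with the drug comparisons.

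In untreated THP-1 cells the overexpression changed 2 members, both higher, where 28.0% of all genes changed (14.9% higher, 13.0% lower) and the median gene moved by 0.19 in either direction. HELLS was 1.27-fold higher, with 87.9, 100 and 99.5 CPM in overexpression against 78.1, 74.8 and 75.0 CPM in empty vector (log2 fold change 0.35, SE 0.08, adjusted p = 0.00535). The libraries did not overlap, as for 41.9% of all genes, and the call held in all 6 fits that left out 1 library. SUZ12 was 1.15-fold higher (0.20, SE 0.06, adjusted p = 0.0268), with 177, 206 and 203 CPM in overexpression against 180, 166 and 167 CPM in empty vector. Here overexpression 1 lay below empty vector 1, and the call was lost without empty vector 2 (adjusted p = 0.0922), empty vector 3 (0.0658), overexpression 2 (0.126) or overexpression 3 (0.105), and in a fit of the 2 groups alone (0.0852). UHRF1 was at -0.25 (SE 0.09, adjusted p = 0.0543) and TET2 at 0.13 (SE 0.05, adjusted p = 0.055), just short of the threshold. TET2 passed in 3 of 13 alternatives and UHRF1 in 5 of 13, among them DESeq2 (adjusted p = 0.0174). UHRF1 was at -0.11 without empty vector 1, its highest library. These libraries are also the untreated side of the drug comparisons. Set side by side, HELLS was 1.27-fold higher with overexpression in untreated cells and 1.78-fold lower with overexpression under the drug. Of the replication genes 1 was higher and 9 lower with overexpression and of the mitosis genes 1 higher and 5 lower.

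In U937 cells lowering S100A9 changed none of the 10 members in edgeR, where 1.77% of all 13016 genes tested changed (0.230% higher, 1.54% lower). Without adjustment 2 members, HELLS and TET2, passed the threshold of 0.05 in edgeR, both at higher values, and DESeq2 called 0 after adjustment. HELLS had 91.3, 86.5 and 77.8 CPM in shS100A9, against 71.0, 72.5 and 68.4 CPM in empty vector (log2 fold change 0.26, SE 0.10, adjusted p = 0.298). TET2 had 25.9, 23.6 and 28.7 CPM in shS100A9, against 18.0, 23.8 and 19.7 CPM in empty vector (0.34, SE 0.14, adjusted p = 0.324). The libraries of HELLS, DNMT3A and TET1 did not overlap between the groups, 3 of 10 members, as for 22.4% of all genes, and those of TET2 did.

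UHRF1 and DNMT1 followed the 2 libraries that stood apart. UHRF1 had 229, 250 and 79.0 CPM in shS100A9, against 235, 126 and 222 CPM in empty vector (log2 fold change -0.07, 95% interval -1.13 to 0.99). DNMT1 had 517, 536 and 342 CPM in shS100A9, against 484, 393 and 468 CPM in empty vector (0.05, 95% interval -0.41 to 0.51). In each gene shS100A9 3 and empty vector 2 were the lowest of their groups, and the summed replication genes ran from 4080 to 7020 CPM in shS100A9 and from 5480 to 6600 CPM in empty vector. Without both libraries 4 members passed, all higher: HELLS (0.34, adjusted p = 0.00277), TET2 (0.39, adjusted p = 0.00881), EED (0.26, adjusted p = 0.0153) and DNMT1 (0.14, adjusted p = 0.0364). In that fit of 4 libraries 4296 of 13055 genes passed, 1988 higher and 2308 lower, against 231 with all 6. The 2 libraries left out were picked from these same counts, and shS100A9 3 had the lowest DNMT1 and UHRF1 levels of all 6. No gene of the 10 pathway lists passed with all 6 libraries.

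The untreated lines were compared through their empty vector libraries. Line, vector and any batch cannot be told apart here. In U937, 3 of 10 members were lower and 0 higher, where 26.2% of all 13695 genes differed (11.4% higher, 14.8% lower). TET2 had 18.0, 23.8 and 19.7 CPM in U937, against 29.4, 27.3 and 29.6 CPM in THP-1 (log2 fold change -0.50, SE 0.12, adjusted p = 0.0187). DNMT3B had 25.2, 24.4 and 24.3 CPM in U937, against 34.0, 31.1 and 28.2 CPM in THP-1 (-0.35, SE 0.09, adjusted p = 0.0335). EZH2 had 131, 147 and 135 CPM in U937, against 174, 157 and 159 CPM in THP-1 (-0.26, SE 0.08, adjusted p = 0.0447). No library of these 3 genes overlapped between the lines, as for 45.4% of all genes, but no call held in each fit that left out 1 library: none of the 3 passed without U937 1, U937 3, THP-1 1 or THP-1 2. Without THP-1 3 DNMT3B alone passed, and without U937 2 all 3 passed, with EED and SUZ12.

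Levels per kb used the joined length of all exons annotated in GENCODE 29, so the order of genes depends on that annotation. On this scale the untreated groups had the same 4 transcripts on top, DNMT1, UHRF1, EZH2 and SUZ12. Their means ran from 23.0 to 47.5 CPM per kb, and DNMT1 and UHRF1 overlapped in each group but untreated overexpression. HELLS and DNMT3B followed at 5.11 to 9.45 CPM per kb, then EED, DNMT3A, TET2 and TET1, with TET1 at 0.393 to 0.592 CPM per kb. In treated THP-1 cells EZH2 led at 48.4 ± 1.77 CPM per kb with overexpression and 53.1 ± 2.31 with the empty vector, ahead of UHRF1 and DNMT1 at 19.9 to 21.7 CPM per kb, which overlapped each other. TET2, at 6.80 ± 0.141 and 6.76 ± 0.0543 CPM per kb in the same order, was level with EED at 6.82 ± 0.305 and 6.58 ± 0.284 (SD, n = 3 each). It stood below DNMT3A in every untreated group and above it in both treated ones. TET3 was above both relatives throughout: TET2 was at 0.315 to 0.361 of TET3 per kb in treated and 0.210 to 0.239 in untreated THP-1 libraries.

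The gene most like each member over the 6 group means was found by the root mean square difference of centred log2(CPM + 0.5) values, among 12789 genes with a mean of at least 1 CPM. The closest were PXK for DNMT1 (0.0414), SYNGR2 for UHRF1 (0.0374), PHGDH for HELLS (0.141), ABCB9 for DNMT3A (0.0378) and PSME2 for DNMT3B (0.0533). For the others they were CLIP2 for TET1 (0.0394), IL9R for TET2 (0.0582), PEX6 for EZH2 (0.0485), MIER1 for EED (0.0284) and EDEM1 for SUZ12 (0.0361). HELLS had the most distant closest gene of the 10. Among the members themselves the nearest pair was DNMT1 and TET1 (0.133), followed by EZH2 and EED (0.169), while TET2 was 0.697 from its nearest, EZH2. Even for the nearest pair, 104 other genes were closer to TET1 than DNMT1 was. These likenesses rest on 6 points that share libraries and describe the pattern alone.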

How the data were processed

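RNA-seq counts per gene were deposited by the authors as whole, unnormalized numbers for 18 libraries. Reads were aligned with HISAT2 2.0.4, per the submitters' processing notes. No source used here gives the counter, its strand setting, the genome build or the annotation. Identifiers were matched to GENCODE 29 for symbols (18642 of 18670), coordinates and exon lengths (18482). Libraries held 38433169 to 84409062 counts.

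CPM used 1 TMM scale over all libraries, and 95% intervals used the t distribution with edgeR's total degrees of freedom. Tests were edgeR 4.0.16 quasi-likelihood F-tests (R 4.3.3, limma 3.58.1) after filterByExpr, with Benjamini-Hochberg adjustment over all genes: 12 THP-1 libraries in 1 fit (15403 genes), 6 U937 libraries (13016) and the 6 untreated empty vector libraries (13695). The fits were tested on simulated data, with most genes unchanged, for the knockdown and the untreated overexpression comparisons alone. The drug, interaction and line comparisons were not simulated. Alternatives were other scalings, DESeq2 1.42.0, other filters, a replicate block, each library left out, the 2 groups alone, and U937 without the 2 libraries that stood apart. Tables and figures used Python 3.11.15, pandas 2.3.3, numpy 2.4.6 and matplotlib 3.10.9.

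All members were named. From each list up to 4 genes were named by smallest p among those that passed, with the members' paralogs and the 2 genes most like each member, of which the closest is given. A gene that this rule names is not reported here. The members and lists were chosen with earlier results of these data known.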

Additional observations from a re-analysis of the deposited data

Results flagged for a closer look

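Among the members, their paralogs and the genes named by rule from the lists, the Adavivint effect differed between the vectors in the interaction test of edgeR for 18 genes with more than 3 counts in each THP-1 group. Each value is the effect with overexpression minus the effect with the empty vector on the log2 scale, with its adjusted p over all genes, of which 19.3% passed. Among the members these were HELLS at -1.18 (8.37e-05) and EZH2 at -0.26 (0.0331), the EZH2 call being lost in 8 of 12 fits that left out 1 library.

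Among paralogs and Polycomb genes the difference was -0.39 for EZH1 (0.0203), -0.43 for UHRF2 (0.00492), -0.51 for TRDMT1 (0.0346), -0.27 for RBBP4 (0.0271) and -0.27 for SCMH1 (0.019). With 1 library left out, TRDMT1 passed in 3 of 12 fits, RBBP4 in 5, EZH1 in 9 and SCMH1 in 11, while UHRF2 passed in all 12. Among genes of methylation and methyl donor supply it was -0.50 for IDH2 (0.00267), -0.76 for CDCA7L (0.000496), -0.75 for MTAP (0.000846), -0.55 for AHCYL1 (0.00162) and -0.37 for ADK (0.0226), which passed in 5 of 12 fits with 1 library left out, against 12 of 12 for the other 4. Among replication genes it was -0.40 for CDC45 (0.0193) and -0.60 for CHAF1B (0.00218), and among mitosis genes 0.41 for MKI67 (0.00198) and 0.44 for CENPF (0.00095), of which CDC45 passed in 11 of 12 such fits and the others in all 12. Among germline genes it was -0.71 for TKTL1 (0.0188) and 0.94 for MAGEB2 (0.0016), whose level was 14.2 CPM in treated and 11.3 CPM in untreated overexpression, and 9.78 CPM in treated and 15.0 CPM in untreated empty vector cells. Both passed in all 12 fits. STK31 also passed (adjusted p = 0.0147), but it had 0 counts in untreated empty vector cells, so no size is given. CDCA7, named after its values were seen, was at -0.58 (0.0052).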

How the results depend on the processing

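Under the drug the counts of members that changed stayed within 1.5 times of 9 with overexpression and 10 with the empty vector in every alternative run, and no member's call turned round. With overexpression in untreated cells the count of 2 became 5 with library totals, 4 when genes needed 1 CPM in 3 libraries, and 1 to 4 with each library left out. Under the drug it was 2 in place of 1 with library totals, which added EZH2 (-0.18, adjusted p = 0.0224). For the difference between drug effects the count of 2 became 1 with the replicate block and 1 to 3 with each library left out. It was 3 without untreated overexpression 1 (SUZ12 at -0.26, adjusted p = 0.0214) and with library totals (SUZ12 at -0.25, adjusted p = 0.0328). In U937 the count of 0 became 4 without the 2 libraries that stood apart, where CHAF1B was at 0.20 (adjusted p = 0.0181), against -0.02. Between the lines the count of 3 became 1 with the replicate block and 0 to 5 with each library left out.

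Replicate numbers were not treated as pairs, since same-numbered libraries correlated at -0.52 to 0.31 over the comparisons. For the drug the range was -0.02 to 0.04 with the empty vector and 0.01 to 0.11 with overexpression. The lowest value came from within U937 and the highest from U937 against THP-1. The causes of the shifts in the counts were not tested. Over all genes, the U937 count of 231 became 790 with DESeq2, 3 with the replicate block, 4296 without the 2 libraries that stood apart, and, with 1 library left out, 18 (empty vector 1), 362 (empty vector 2), 20 (empty vector 3) or 21 (shS100A9 1 or 2). The overexpression count of 4307 became 2735, and the interaction count of 2968 became 1885, without untreated overexpression 2. Overexpression under the drug gave 1309, against 1998 with DESeq2 and 502 to 775 without treated empty vector 1 or 2 or treated overexpression 1, 2 or 3. The line count of 3583 became 6111 without U937 2, 2122 without THP-1 2 and 2355 without THP-1 3. Between the scalings run, the median of all genes moved by at most 0.066 in size. All of these scalings are relative to the library, so a change in total RNA per cell would not show. Under the drug 84.7% of all genes changed with overexpression and 85.3% with the empty vector. Folds there are changes in share of the library, and a shift common to most genes was not tested. TET1, with 50 counts in its lowest library, had the widest intervals of the members under the drug.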

Other observations

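Germline genes that DNA methylation is known to keep silent in somatic cells included both higher and lower ones under Adavivint. Of 26 listed, 20 were in the table and 11 were tested, with 4 higher and 3 lower in overexpressing cells and 4 higher and 5 lower in empty vector cells. Of all genes tested, 43.4% were higher and 41.3% lower in overexpressing cells and 44.2% higher and 41.1% lower in empty vector cells, and the germline counts were near or below these shares. SYCP3, a protein of meiotic chromosome axes, rose to 9.08 CPM in treated overexpression, against 0.484 CPM untreated, and to 9.46 CPM in treated empty vector cells, against 0.399 CPM untreated. TKTL1, a transketolase-like gene, fell 4.80-fold with overexpression and 2.94-fold with the empty vector. STK31 had 40 counts over the 3 treated and 14 over the 3 untreated overexpression libraries, and 40 over the treated and 0 over the untreated empty vector libraries.

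Of 36 developmental regulators known as Polycomb targets, 31 were in the table and 24 were tested, with 5 higher and 6 lower in overexpressing cells and 4 higher and 9 lower in empty vector cells, in each direction a smaller share than over all genes. Their summed level was 41.0 to 43.0 CPM in treated and 79.1 to 86.0 CPM in untreated overexpression, and 41.5 to 43.5 CPM in treated and 86.1 to 92.4 CPM in untreated empty vector cells. Most of the difference in this sum came from IRX3, at 8.13 CPM in treated and 38.7 CPM in untreated overexpression and 9.34 CPM in treated and 43.6 CPM in untreated empty vector cells, and from WT1, at 2.27 and 8.78 CPM in treated and untreated overexpression and 1.67 and 9.41 CPM in treated and untreated empty vector cells. IRX3, a homeobox gene, fell 4.79-fold with overexpression and 4.68-fold with the empty vector, and WT1, a zinc finger factor expressed in many myeloid leukemias, fell 3.89-fold and 5.66-fold. NEUROG2, a neurogenic factor, rose to 2.07 CPM in treated overexpression, against 0.570 CPM untreated, and to 1.94 CPM in treated empty vector cells, against 0.299 CPM untreated. HAND2, a cardiac and limb factor, rose to 1.00 and 1.27 CPM in treated overexpression and empty vector cells, against 0.0727 and 0.0615 CPM in the untreated cells of each vector.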
